A study of Mus musculus with 4 samples.

Results

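Klotho, the fibroblast growth factor (FGF) receptors and the genes around them were followed in the mouse hippocampus as 7 genes: Kl, Fgfr1, Fgfr2, Fgfr3, Fgf1, Fgf2 and Frs2. They were taken by gene symbol from a deposited table of 15713 genes, and each symbol matched 1 row. Messenger RNA was sequenced from hippocampus of C57BL/6 mice aged 11 to 12 weeks in 4 libraries. The group called ATO (2 libraries) came from mice exposed to 5000 ppb ATO during development, and the control group (2 libraries) from untreated mice. The labels do not spell out ATO, while the series title speaks of arsenic-exposed offspring. They do not say whether each library was 1 animal or from which litter it came, so the tests below measure only the spread between these libraries.

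FGFs are secreted or released signals that bind receptor tyrosine kinases at the cell surface together with heparan sulfate. The activated receptor phosphorylates the docking protein encoded by Frs2, which recruits adaptors that switch on the Ras and MAP kinase cascade. Klotho, the product of Kl, is a membrane protein that lets FGF receptors bind the hormone-like FGF from bone. In brain it is best known from the epithelium of the choroid plexus, the tissue that secretes cerebrospinal fluid, and its outer part is shed into that fluid. Fgfr1 is typical of neurons, Fgfr3 of astrocytes, and Fgfr2 of oligodendrocytes and astrocytes.

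The promoters of 2 genes are shown: Kl, which was higher in ATO, and Fgfr3, the gene of the 7 with the lowest fold change, which did not pass the test over all genes. They are RefSeq sequences of build GRCm38.p6, 250 bases before to 50 after the start site, 5′ to 3′ on the plus strand, and capitals mark the motifs described after them.
Kl, chr5:150952357-150952656: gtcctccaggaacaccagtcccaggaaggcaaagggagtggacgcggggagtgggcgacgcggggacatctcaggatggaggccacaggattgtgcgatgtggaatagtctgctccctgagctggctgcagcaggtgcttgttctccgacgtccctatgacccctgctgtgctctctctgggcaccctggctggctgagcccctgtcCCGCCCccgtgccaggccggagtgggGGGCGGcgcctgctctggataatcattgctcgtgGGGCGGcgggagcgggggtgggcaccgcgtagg
Fgfr3, first start site, chr5:33721474-33721773: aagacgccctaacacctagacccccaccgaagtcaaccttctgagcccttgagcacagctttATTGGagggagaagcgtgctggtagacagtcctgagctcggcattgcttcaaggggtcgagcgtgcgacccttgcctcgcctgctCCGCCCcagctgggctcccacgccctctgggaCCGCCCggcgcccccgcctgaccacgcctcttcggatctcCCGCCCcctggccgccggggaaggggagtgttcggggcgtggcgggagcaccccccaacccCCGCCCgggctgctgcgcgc
Fgfr3, second start site, chr5:33722056-33722355: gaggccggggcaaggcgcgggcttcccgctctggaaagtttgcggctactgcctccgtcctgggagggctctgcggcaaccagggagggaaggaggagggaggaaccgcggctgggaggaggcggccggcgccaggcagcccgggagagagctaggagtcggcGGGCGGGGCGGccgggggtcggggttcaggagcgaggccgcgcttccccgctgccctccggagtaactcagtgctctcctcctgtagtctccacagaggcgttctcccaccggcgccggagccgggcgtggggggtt

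Both strands were searched for 4 motifs. The GC box GGGCGG occurred 3 times in the Kl window, 4 times in the first Fgfr3 window and 2 times, overlapping, in the second; 35.7% of the 32851 promoters in the RefSeq table hold it. The CCAAT box (CCAAT) occurred 1 time, in the first Fgfr3 window, against 37.4% of all promoters. The TATA box TATAAA (13.6% of all promoters) and TAATCC (7.06%), the core bound by the homeobox factor OTX2 of choroid plexus, had no match in these 3 windows. The Kl window was 67.3% G or C with 19 CpG dinucleotides, and the Fgfr3 windows were 69.7% and 73.0% with 26 and 30, where the median promoter was 52.7% with 7. Among the other genes, Fgf2 (62.7% G or C) and Frs2 also had GC-rich windows with GC boxes. The Fgfr2 window was 43.7% G or C with 4 CpG dinucleotides and none of the 4 motifs. No window of Fgfr1 or Fgf1 was examined.

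Kl (ENSMUSG00000058488, chromosome 5 from 150952607 to 150993817, plus strand, GRCm38) was the gene that stood apart. It had 1515 and 1828 counts in ATO replicates 1 and 2, against 297 and 289 in control replicates 1 and 2. As normalised CPM (counts scaled to library size) it was at 87.0 and 110 in ATO and at 20.1 and 19.1 in control. Both ATO libraries lay far above both controls, and the controls lay closer together than the ATO libraries. The mean was 98.5 ± 16.3 CPM in ATO and 19.6 ± 0.713 CPM in control (SD, n = 2 each), a 5.01-fold difference with a log2 fold change of 2.33 ± 0.12 (SE, edgeR fit over all genes). In bulk tissue, more cells that express a gene and more RNA per cell cannot be told apart.

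The 3 receptors did not move in 1 direction. Fgfr1 (ENSMUSG00000031565, chromosome 8 from 25513654 to 25575718, plus strand) was at 143 and 152 CPM in ATO and at 124 and 124 CPM in control. Both ATO libraries were above both controls, and the log2 fold change was 0.25 ± 0.08. Fgfr3 (ENSMUSG00000054252, chromosome 5 from 33721674 to 33737068, plus strand), the receptor typical of astrocytes, was at 97.0 and 92.3 CPM in ATO and at 119 and 113 CPM in control. Here both ATO libraries were below both controls, with a log2 fold change of -0.29 ± 0.08, or 0.817-fold. Fgfr2 (ENSMUSG00000030849, chromosome 7, minus strand, RefSeq from 130162451 to 130266808) was at 35.4 and 39.0 CPM in ATO and at 32.6 and 33.4 CPM in control. Its groups did not overlap either, at a log2 fold change of 0.17 ± 0.10.

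The ligands and the docking protein showed no separation of the groups. Fgf1 (ENSMUSG00000036585, chromosome 18 from 38838673 to 38929472, minus strand), a ligand that can bind all FGF receptors, was at 57.5 and 57.1 CPM in ATO and at 60.5 and 51.1 CPM in control. The 2 ATO values lay between the 2 controls, and the log2 fold change was 0.04 ± 0.09. Fgf2 (ENSMUSG00000037225, chromosome 3 from 37348346 to 37410108, plus strand), basic FGF, had the fewest counts of the 7 genes, 164 and 177 in ATO against 141 and 133 in control. In CPM this was 9.41 and 10.7 in ATO and 9.56 and 8.81 in control, with a log2 fold change of 0.13 ± 0.17. Frs2 (ENSMUSG00000020170, chromosome 10 from 117069427 to 117148534, minus strand) was at 62.6 and 58.0 CPM in ATO and at 66.3 and 53.7 CPM in control, with a log2 fold change of 0.01 ± 0.10. For Fgf1 and Frs2 the spread between the controls was larger than the distance between the group means.

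**Figure D1:**
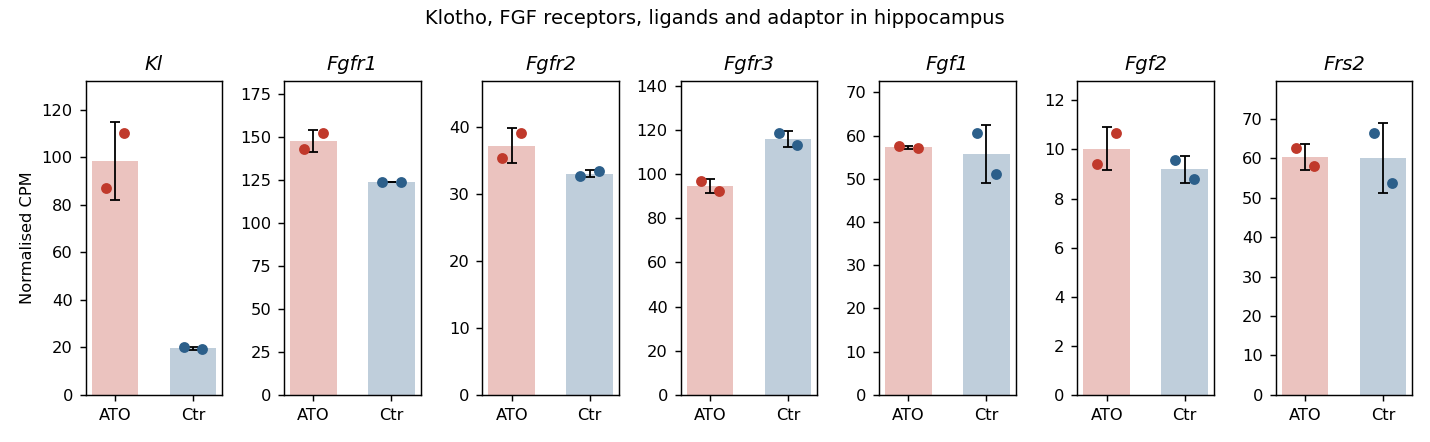
Normalised CPM of the 7 genes in ATO (left) and control (right) hippocampus; points are libraries, bars the mean and error bars the SD (n = 2 per group), with a separate linear axis from 0 for each gene. Kl stands at 98.5 CPM in ATO against 19.6 CPM in control, Fgfr3 is lower in ATO, and for Fgf1, Fgf2 and Frs2 the groups overlap.

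The genes were proposed with the results of this contrast known, so their differences are a description and carry no test here. They were chosen by their symbols with the fold changes and adjusted p-values of the authors' deposited table in view. That table gave Kl a log2 fold change of 2.31 with an adjusted p of 6.49e-08 and marked it as differentially expressed. In the authors' deposited table the adjusted p was 0.0532 for Fgfr3 (log2 fold change -0.29), 0.0789 for Fgfr1 (0.25) and 0.403 for Fgfr2 (0.17). The authors' deposited table had adjusted p-values of 0.75 for Fgf2, 0.861 for Fgf1 and 0.960 for Frs2, and it marked none of these 6. In edgeR's quasi-likelihood test over all genes, 1 of the 7 genes (Kl) was called higher at a Benjamini-Hochberg adjusted p under 0.05 and 0 were called lower, where 2.87% and 0.859% of all genes were called. Of the 7, 3 were at an unadjusted p under 0.05, as were 18.1% of all genes, and DESeq2 and limma-voom each called the same single gene. The 2 groups did not overlap for 4 of the 7 genes (48.1% of all genes). In 3 of them both ATO libraries were above both controls (24.8% of all genes), and in 1 both were below (23.4%). These shares are given as background only. The median log2 fold change was 0.13 over the 7 genes and -0.00496 over all genes tested.

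Reads shared with other genes could touch 4 of the 7. Whether counting used the strand is not given in the sources used here. In the GENCODE vM21 annotation, 13.9% of the exon bases of Fgfr3 (998 bases) are shared with G630022F23Rik on the opposite strand, which was itself at 0.861 and 0.783 CPM in ATO and 1.22 and 1.13 CPM in control. Fgf2 shares 640 exon bases with Nudt6 on the opposite strand (2.18 and 2.35 CPM in ATO, 2.37 and 2.19 CPM in control), and also 255 with Gm43439. Fgfr2 shares 314 with Ctbp2 on the same strand, through a transcript model that extends the gene to position 133123350. Ctbp2 was at 41.6 and 38.4 CPM in ATO and at 33.0 and 29.8 CPM in control, with both ATO libraries above both controls as for Fgfr2; its part in the Fgfr2 values was not tested. Fgfr1 shares 164 with Gm16159. Kl, Fgf1 and Frs2 share no exon base with another annotated gene.

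Levels of different genes were compared as FPKM (fragments per kilobase of gene, scaled to library size), which divides by gene length. In control, the order by mean FPKM was Fgfr3, Fgfr1, Fgf1, Frs2, Fgfr2, Kl and Fgf2, and no neighbours in it had overlapping library ranges. In ATO it was Fgfr1, Fgfr3, Kl, Fgf1, Frs2, Fgfr2 and Fgf2. Kl stood just after both leading receptors there, at 9.39 and 11.7 FPKM in ATO, and its range held that of Fgf1 (10.4 to 10.6 FPKM in ATO). In control Kl stood last but for Fgf2, at 2.14 and 2.05 FPKM. The other neighbours in the ATO order had separate ranges.

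By FPKM, Fgfr1 was ahead of Fgfr3 in ATO and behind it in control, while the receptor total stayed nearly level. By share of CPM, which is not divided by length, Fgfr1 was ahead in both groups (52.8% against 33.9% for Fgfr3 in ATO, 45.4% against 42.5% in control). The summed FPKM of the 3 receptors was 31.7 and 31.9 in ATO and 32.0 and 31.6 in control. Fgfr1 made up 46.0% and 48.0% of this sum in ATO and 38.9% and 39.7% in control. Fgfr3 made up 43.1% and 40.2% in ATO and 51.3% and 50.1% in control. Fgfr2 was the smallest part, with 10.9% and 11.8% in ATO and 9.79% and 10.2% in control. The ratio of Fgfr3 to Fgfr1 FPKM was 0.936 and 0.838 in ATO and 1.32 and 1.26 in control, so that it was below 1 in both ATO libraries and above 1 in both controls. Relative to Kl, the coreceptor, the receptor sum was 3.38 and 2.72 times the Kl FPKM in ATO and 14.9 and 15.4 times in control.

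**Figure D2:**
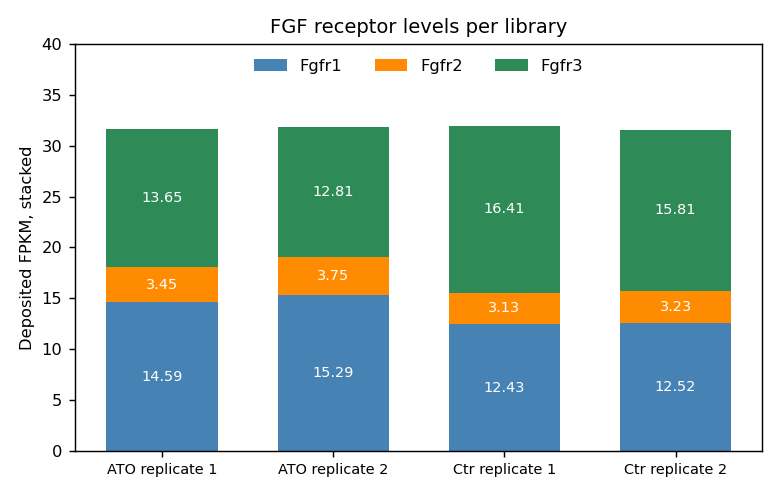
Deposited FPKM of Fgfr1, Fgfr2 and Fgfr3, stacked for each of the 4 libraries (ATO left, control right), with each value printed in its segment. The column heights lie between 31.6 and 32.0 FPKM, and by FPKM the Fgfr1 segment is larger than the Fgfr3 segment in ATO and smaller in control.

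Markers of cell types known for these genes were read beside them. Over all genes, 2.87% rose, 0.859% fell and 18.1% had an unadjusted p under 0.05 in edgeR. All 10 astrocyte markers listed were tested: 1 rose (Gjb6, a gap junction gene, log2 0.44 ± 0.09, adjusted p = 0.0137 in edgeR), 0 fell, 6 had an unadjusted p under 0.05, and the median log2 fold change was 0.05. Those 6 had log2 fold changes of both signs, with Aqp4 at 0.37 ± 0.10 and Gfap at 0.26 ± 0.08 but Aldh1l1 at -0.28 ± 0.11 and Aldoc at -0.21 ± 0.08. These 4 genes were chosen after their values were seen. The summed astrocyte level was 4564 and 4835 CPM in ATO and 4768 and 4499 CPM in control, of which Slc1a2 alone gave 2164 and 2283 CPM in ATO and 2344 and 2052 CPM in control. The part of astrocytes in the Fgfr3 values was not tested. Of 10 oligodendrocyte markers 0 rose and 1 fell (median -0.05), and their sum was 4577 and 4388 CPM in ATO and 4546 and 4682 CPM in control. The 5 general neuron markers had a median of -0.05, with 0 passing in edgeR, DESeq2 or limma-voom and 1 at an unadjusted p under 0.05. Markers of hippocampal neurons, the labelled tissue, were present in every library: dentate granule markers summed to 614 and 552 CPM in ATO and 506 and 429 CPM in control, CA1 markers to 490 and 650 CPM in ATO and 729 and 714 CPM in control, and CA2 and CA3 markers to 412 and 405 CPM in ATO and 409 and 414 CPM in control. Of 7 CA1 markers 3 fell in edgeR and in limma-voom and 1 passed in DESeq2, with 5 at an unadjusted p under 0.05. Of 8 dentate markers 2 rose in edgeR and 2 passed in limma-voom and 1 in DESeq2, with 7 at an unadjusted p under 0.05. Their part in the receptor values was not tested.

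Choroid plexus markers moved with Kl. All 20 markers of choroid plexus epithelium rose in ATO (adjusted p under 0.05 in edgeR), where 2.87% of all genes rose. The list does not hold Kl and was chosen with earlier results of these data known. The log2 values of the markers began at 0.67, ended at 6.53 and had their median at 4.27. The most abundant were Ttr, the thyroid hormone carrier transthyretin (log2 5.97 ± 0.33), Enpp2, which encodes autotaxin (3.02 ± 0.13), the carbonic anhydrase gene Car12 (0.67 ± 0.08) and the chloride channel gene Clic6 (3.94 ± 0.21), with adjusted p-values from 1.25e-08 to 0.000260. The 20 markers summed to 3364 and 4192 CPM in ATO and to 178 and 246 CPM in control, and none was at 0 in any library. Every gene analysed exceeded 1 CPM in 2 or more libraries. Slc4a5 (0.271 and 0.0662 CPM in control) and Tmem72 (0.136 and 0.397 CPM in control) were under 1 CPM in both controls. So were Folr1, Kcnj13, Otx2, Aqp1, Kcne2, Cldn2, Steap1 and Col8a1. Such markers were in the analysis only through their ATO values and could only come out higher. They are part of the 20, the median and the sums, so the share of all genes is no yardstick for that count. Ttr, Enpp2, Clic6, Prlr, Sostdc1, Trpv4, Slc13a4 and Car12 were over 1 CPM in both controls and rose as well. The part of choroid plexus cells in the Kl values was not tested.

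Kl differed less between the groups than most of this list. Its log2 fold change was below that of 18 of the 20 markers and above that of 2, Car12 and the sulfate transporter gene Slc13a4 (2.02 ± 0.25). The 18 include the markers under 1 CPM in both controls, which were analysed only through their ATO values. For every 100 CPM of the markers other than Ttr, Kl had 8.07 and 8.34 CPM in ATO and 12.8 and 10.4 CPM in control. With Ttr in the sum these became 2.59 and 2.63 CPM in ATO and 11.3 and 7.79 CPM in control. Enpp2 and Car12 made up 74.2% and 75.1% of the sum without Ttr in ATO and 85.8% and 87.6% in control. The ratio without Ttr therefore follows mainly these 2 genes and does not give Kl per amount of choroid plexus. Expression of Enpp2 and Car12 in other cells was not tested. Between the ATO libraries, the log2 ratio of replicate 2 to replicate 1 was 0.34 for Kl and had a median of 0.30 over the markers, with 16 of the 20 higher in replicate 2. Between the controls, the log2 ratio of control replicate 2 to control replicate 1 was -0.07 for Kl, while its median over the 20 markers was 0.26, with 12 of the 20 higher in replicate 2 and Ttr at 1.60; 12 markers had under 15 counts in at least 1 control. Ependymal markers, of cells that line the ventricles beside the choroid plexus, rose for 8 of 12 and fell for 0 (median log2 1.21). Of all genes, 2.87% rose and 0.859% fell. Of the 12 ependymal markers 3 passed in DESeq2 and 6 in limma-voom. These 12 summed to 76.1 and 55.6 CPM in ATO and to 35.3 and 36.9 CPM in control. Of 10 leptomeningeal markers 0 passed in edgeR, DESeq2 or limma-voom, and 6 had an unadjusted p under 0.05, as did 18.1% of all genes. Their median was 0.69. These summed to 116 and 72.1 CPM in ATO and to 79.4 and 42.2 CPM in control, and the part of either cell type in the Kl values was not tested.

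**Figure D3:**
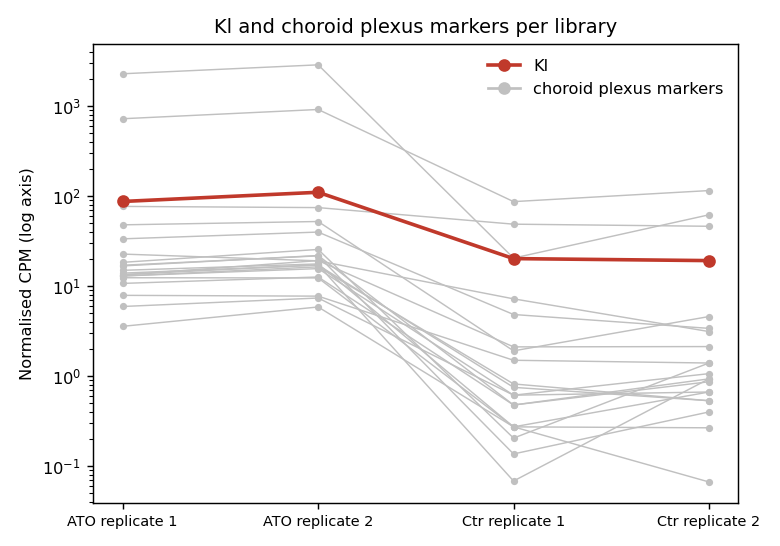
Normalised CPM on a log axis of Kl (red) and of 20 choroid plexus markers (grey) in the 4 libraries, ATO left and control right; lines only join the values of 1 gene. All genes shown are higher in ATO, and most grey lines fall further toward control than that of Kl. Markers under 1 CPM in both controls entered only through their ATO values.

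The genes whose profile over the 4 libraries was most like that of Kl were Trpv4, Ace, Gm44250, Col9a3 and Slc2a12. Likeness was the root mean square difference of log2 CPM, each gene centred on its own mean, among 15465 other genes with a mean of at least 1 CPM. It was 0.131 for Trpv4, a calcium-permeable channel gene that is also in the choroid plexus list, with 7.87 and 7.71 CPM in ATO and 1.49 and 1.39 CPM in control. It was 0.135 for Ace, the gene of angiotensin-converting enzyme, with 41.5 and 51.5 CPM in ATO and 10.8 and 7.88 CPM in control. The predicted gene Gm44250 (0.159), the collagen gene Col9a3 (0.174) and the glucose transporter gene Slc2a12 (0.186) came next, and the log2 fold changes of the 5 genes lay between 2.11 and 2.44.

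The rest of the FGF and klotho pathway was read from a list of 94 further genes in 8 roles, of which 73 were tested. In edgeR's test over all genes 4 of the 73 rose and 0 fell, where 3.73% of all genes were called in either direction. The median log2 fold change was 0.00433 over the 73 genes and -0.00496 over all genes. Of the 73 genes, 18 had an unadjusted p under 0.05 in edgeR, against 2851 of all 15713 genes (18.1%). DESeq2 and limma-voom each called 4. The count rests on single libraries: 1 passed without control replicate 2 and 2 without ATO replicate 2.

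Among secreted ligands, 7 of 16 were tested and none passed in edgeR, DESeq2 or limma-voom (1 at an unadjusted p under 0.05). The most abundant was Fgf10, a ligand of epithelial growth, at 21.3 ± 1.65 CPM in ATO and 23.0 ± 1.67 CPM in control (SD, n = 2 each). The 4 intracellular FGF homologous factors, which bind sodium channels rather than receptors, did not pass with the same tools (1 at an unadjusted p under 0.05). Fgf13 among them was at 225 ± 3.28 CPM in ATO and 225 ± 3.31 CPM in control. Of 5 other receptors and coreceptors tested 0 passed (1 at an unadjusted p under 0.05; 0 in DESeq2 and limma-voom), and all 5 had a negative log2 fold change, from -0.40 to -0.05. Flrt2, an adhesion protein gene, was at 45.9 and 46.0 CPM in ATO and at 54.9 and 47.8 CPM in control. The β-klotho gene Klb was near the floor of the table, at 1.03 and 0.783 CPM in ATO and 1.02 and 1.39 CPM in control. That gene encodes the relative of klotho that serves other hormone-like FGFs.

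Of 6 heparan sulfate and other ligand-binding protein genes 1 rose, and 2 had an unadjusted p under 0.05. Sdc4, which encodes the cell-surface proteoglycan syndecan-4, was at 93.4 and 96.2 CPM in ATO and at 74.9 and 73.8 CPM in control, with both ATO libraries above both controls (log2 0.35 ± 0.08, adjusted p = 0.0233 in edgeR). Of 23 adaptors and kinases 1 rose, and 5 had an unadjusted p under 0.05. Crkl, an adaptor that links phosphorylated docking proteins to small GTPases, was at 64.1 and 66.0 CPM in ATO and at 48.9 and 45.8 CPM in control (log2 0.46 ± 0.09, adjusted p = 0.00831). The other 22 did not pass.

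Of 11 feedback inhibitors 2 rose and 0 fell, and 5 had an unadjusted p under 0.05, against 18.1% of all genes. Dusp5, which encodes a nuclear MAP kinase phosphatase, was at 25.4 and 29.6 CPM in ATO and at 16.5 and 18.9 CPM in control (log2 0.63 ± 0.13, adjusted p = 0.0128 in edgeR). Spred1, an inhibitor of Ras signalling, was at 165 and 176 CPM in ATO and at 143 and 127 CPM in control (log2 0.34 ± 0.08, adjusted p = 0.0353). The classic FGF-induced inhibitors did not pass, and their signs differed. Spry1 had a log2 fold change of 0.44 ± 0.18, Spry2 one of -0.27 ± 0.09, Spry4 one of 0.30 ± 0.14 and Dusp6 one of -0.14 ± 0.11. These inhibitors, like Klb and the ETS factors named next, were chosen after their values were seen. Of 7 target genes 0 passed in edgeR, DESeq2 or limma-voom, and 2 had an unadjusted p under 0.05. The ETS factors that read out FGF signalling had log2 fold changes of -0.20 ± 0.09 (Etv1), -0.47 ± 0.17 (Etv4) and -0.12 ± 0.09 (Etv5). Egr1, the most abundant target, varied within groups, at 108 and 154 CPM in ATO and 108 and 140 CPM in control.

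Sdc4, Crkl, Dusp5 and Spred1 kept their sign in the 11 alternatives tried, and each lost its call in at least 1 of them. Over these alternatives the adjusted p ran from 0.00269 to 0.106 for Sdc4, from 0.000794 to 0.0699 for Crkl, from 0.000651 to 0.0692 for Dusp5 and from 0.00285 to 0.188 for Spred1.

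Genes that shed klotho or handle the minerals it regulates formed the last role. Of 18 listed 10 were tested and 0 passed in edgeR, DESeq2 or limma-voom, with 1 at an unadjusted p under 0.05 and a median log2 fold change of 0.08. The sheddase genes Adam10, Adam17 and Bace1, chosen after their values were seen, had log2 fold changes of 0.12 ± 0.08, 0.23 ± 0.13 and 0.10 ± 0.08. Atp1b1, a sodium pump subunit and the most abundant of the role, was at 1842 ± 61.2 CPM in ATO and 1959 ± 116 CPM in control (SD, n = 2 each).

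**Figure D4:**
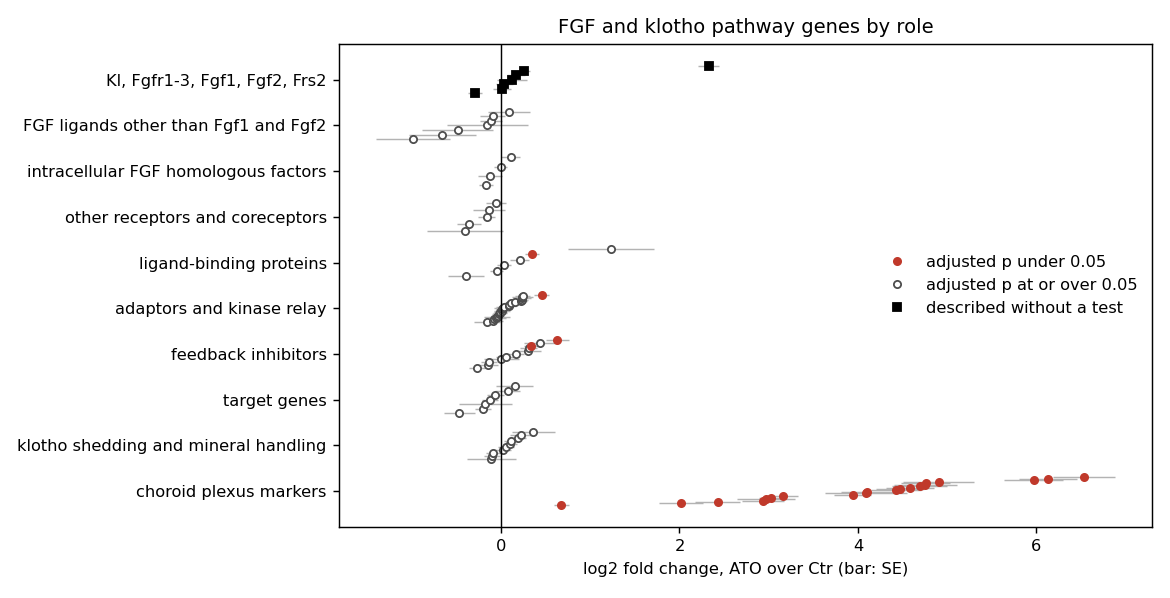
Log2 fold change of ATO over control with its SE for the 7 genes (black squares, described without a test), for 73 pathway genes by role and for 20 choroid plexus markers; red points passed at an adjusted p under 0.05 and open points did not. The pathway roles gather around 0 with 4 red points. Kl at 2.33 lies toward the low end of the choroid plexus markers, which run from 0.67 to 6.53, with 18 of the 20 above it. Those under 1 CPM in both controls entered only through their ATO values.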

How the data were processed

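Messenger RNA libraries were made with an Illumina TruSeq kit, per the labels' protocols. The submitters' processing notes name the build GRCm38, the aligner HISAT2 (2.0.1), the read counter HTSeq (0.6.1) and limma (3.47.15), with cutadapt, FastQC and R, without settings. The deposited table holds, per the file headers, raw counts and FPKM per library, and the authors' log2 fold change, p-value and adjusted p-value. All 15713 genes exceeded 1 CPM in 2 or more libraries; weaker genes are not analysed here. Counts summed to 14832214 to 17251032 per library, so 1 count was 0.0580 to 0.0674 CPM. The deposited FPKM scaled with the count over the library total (99th percentile of deviation 0.157% over 7306 genes at or over 5 FPKM).

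Counts were fitted with edgeR 4.0.16 (R 4.3.3; filterByExpr removed 0 genes; TMM; quasi-likelihood test, ATO against control, no covariate; Benjamini-Hochberg over all genes). The SE is the fold change divided by the square root of F. A gene rose or fell where the adjusted p was under 0.05. On simulated counts of 15713 genes for this comparison, with 200 changed, 61.2%, 79.7% and 100% of genes changed 1.5-, 2- and 4-fold were recovered, and 10 of 170 calls were false. Alternatives used DESeq2 1.42.0 and limma 3.58.1. Beside the 7 genes, the text names pathway genes that passed, or the most abundant of a role where none did, the 4 most abundant choroid plexus markers and the 5 genes nearest to Kl. The 7 genes and all lists were chosen with earlier results of these data known. Exceptions to the naming rule are marked in the text or given here. Gjb6, Slc1a2, Slc13a4 and the choroid plexus markers named for their control level were also named after their values were seen. A result for 1 gene is not reported here.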

Additional observations from a re-analysis of the deposited data

How the results depend on the processing

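In the 11 alternatives tried for each of the 7 genes, 73 of 77 log2 fold changes stayed within 1 SD of the libraries and 4 moved further, all without 1 library. With 2 libraries per group, leaving 1 out shifts a value by about this SD at most. That part of the count was therefore set in advance and does not measure stability. Kl ran from 2.15 to 2.49 when each library was left out in turn. The alternatives refit the same libraries, and the 7 genes were chosen with this contrast known. Calls among the 7 genes are therefore a description only. Fgfr3 ran from -0.33 to -0.26 without single libraries and was called in 3 of the 11 (median-ratio size factors, a mean CPM of at least 1, and the replicate block). Fgfr2 ran from 0.10 without ATO replicate 2 to 0.24 without ATO replicate 1, and Fgf2 from 0.04 to 0.21 without the same libraries. Fgfr1 ran from 0.21 to 0.30. Fgf1 and Frs2 changed sign, from -0.08 to 0.17 and from -0.14 to 0.17, with the control left out. Frs2 also changed sign with the ATO library left out, at -0.05 without ATO replicate 1 and 0.06 without ATO replicate 2. DESeq2's Wald test gave 252 genes higher and 64 lower in place of 451 and 135. Leaving out single libraries gave 180 to 443 higher and 42 to 168 lower (180 and 42 without control replicate 2, 300 higher without ATO replicate 1), 1 to 5 pathway genes and 20 choroid plexus markers. With the replicate number as a block 890 genes were higher and 476 lower, 7 pathway genes passed and 3 of the 7 genes were called. The correlation of same-numbered libraries' deviations was 0.0877 over all genes. Single genes can still follow the replicate number, so this does not settle whether the numbers pair the libraries. The main fit used no pairing. Receptor shares by CPM in place of FPKM were, in ATO and control, 52.8% and 45.4% for Fgfr1, 13.3% and 12.1% for Fgfr2, and 33.9% and 42.5% for Fgfr3, so Fgfr1 led in both groups. CPM does not divide by gene length; the cause of the other changes was not tested. Counts of 133 to 2527 per library lie behind the 7 genes.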
